A study of Homo sapiens with 4 samples.

Results

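The genes described here encode 10 amino acid transporters that act outside cystine uptake, namely SLC7A5, SLC43A1, SLC1A5, SLC1A4, SLC38A1, SLC38A2, SLC6A9, SLC7A1, SLC1A3 and SLC36A1. They were taken by symbol from a list of names, which was chosen with earlier results of these data known, and all 10 were found among the 58233 genes of the count table. Poly(A) RNA of the human pancreatic cancer cell lines MIA PaCa-2 and PANC-1, both labelled wild type, was sequenced 24 h after treatment with PBS or with cannabichromene (CBC), a cannabinoid of hemp. There was 1 library for each of the 4 conditions. The CBC dose was 35 µM in MIA PaCa-2 cells and 30 µM in PANC-1 cells. CBC was stored in acetonitrile and the control is labelled PBS in the records and vehicle in the methods, so an effect of the solvent and an effect of CBC cannot be told apart. Each line is an established culture from 1 patient's tumour, so the pair of lines stands for no wider set of pancreatic cancers.

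Cells cannot make the essential amino acids, and cancer cells also draw heavily on outside glutamine, serine, glycine and arginine. Transporters of the SLC families carry these across the plasma membrane, some by exchange of an inner for an outer amino acid and others with sodium or protons. When amino acids run short or unfolded proteins build up, translation slows and the transcription factor ATF4 is made. Together with C/EBP factors, ATF4 binds C/EBP-ATF response elements in genes of amino acid uptake and synthesis.

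Total counts were 21742775 to 27903667 per library, so that the limit of 3 counts lay at 0.11 to 0.135 CPM, the usual scaling of a gene's counts to the size of its library, here after TMM. The epithelial keratins KRT8, KRT18 and KRT19 and the mesenchymal gene VIM were found in all 4 libraries. CDH1 and EPCAM, which define epithelial cells, had 0 and at most 1 count in the MIA PaCa-2 libraries. Among 8 markers of immune, endothelial, fibroblast, islet and acinar cells, CD3E, DCN, INS, PECAM1 and PTPRC were at 0 counts in every library. The summed level of these 8 markers was 0.540 and 0.889 CPM in MIA PaCa-2, and 134 and 47.2 CPM in PANC-1 under PBS and CBC, where COL1A1 made up nearly all of it. The mitochondrially encoded share of the counts was lower in both CBC libraries, at 5.81% and 3.86% in MIA PaCa-2 and 4.63% and 2.42% in PANC-1 under PBS and CBC, and its part in the values below was not tested. A level in CPM is a share of a library's mRNA, so fewer cells that express a gene and less of its RNA per cell cannot be told apart.

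CBC treatment went with higher mRNA of most of these transporters in both lines. Their summed level was 2044 CPM under PBS and 3528 CPM under CBC in MIA PaCa-2, a 1.73-fold difference. In PANC-1 the sums were 2136 and 3454 CPM, a 1.62-fold difference. Over both lines, with the cell line as a block, SLC1A4, SLC6A9, SLC7A5 and SLC7A1 rose. These were 4 of the 9 members tested by edgeR's quasi-likelihood test (Benjamini-Hochberg adjusted p under 0.05), where 2.26% of all 16381 tested genes were called higher. No member was called lower, compared with 2.45% of all tested genes, and DESeq2 also called none lower. Before adjustment 7 of the 9 members had p under 0.05, all with higher levels, where 20.9% of all tested genes had p under 0.05 and 10.6% had it with higher levels. The median log2 fold change of the 9 members was 0.98, and that of all tested genes was 0.02. Since the lines were the only replication, each gene had 1 residual degree of freedom. The p-values also rest on variance estimates that edgeR shares across all tested genes. No test was possible within a line.

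**Figure D1:**
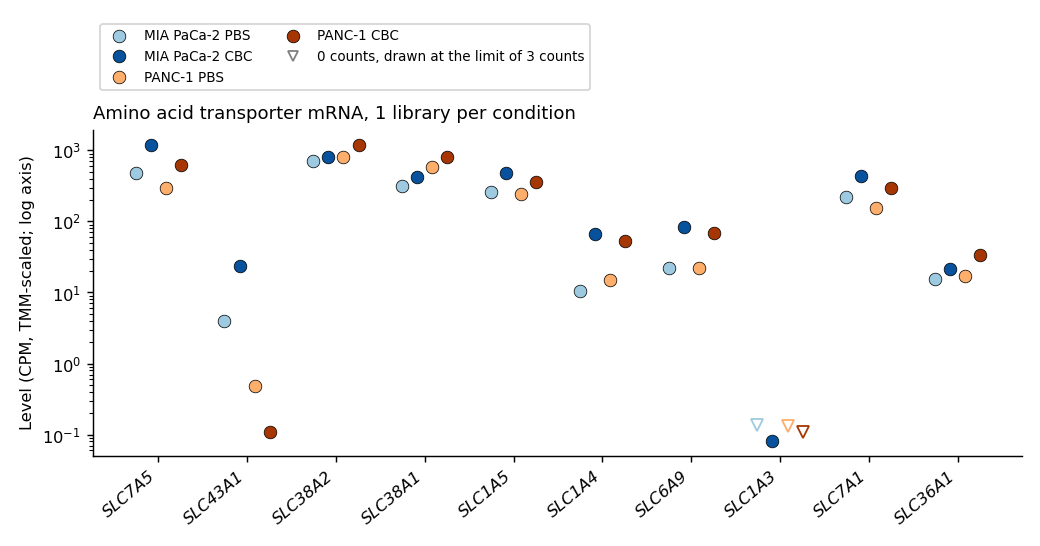
Level of each transporter gene in the 4 libraries, in CPM on TMM-scaled library sizes (vertical log axis), with 1 point per library and open triangles for 0 counts, drawn at the limit of 3 counts; points are to be compared within a gene, since genes differ in length. SLC1A4 and SLC6A9 lie higher under CBC in both lines, while SLC43A1 lies at 23.3 CPM in CBC-treated MIA PaCa-2 and at 0.110 CPM in CBC-treated PANC-1.

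Within a line, differentially expressed genes (DEGs) were taken as those with a log2 fold change above 1 or below −1, provided that at least 1 of the 2 libraries reached 1 CPM. In MIA PaCa-2, 4 of 9 members that passed this filter were DEGs with higher levels (SLC1A4, SLC43A1, SLC6A9 and SLC7A5) and 0 had lower levels, beside 11.5% higher and 8.97% lower of all 14001 genes. In PANC-1, 3 of 8 members that passed were higher (SLC1A4, SLC6A9 and SLC7A5) and 0 lower, where 7.71% of 14091 genes were higher and 7.03% lower. SLC1A3 passed in neither line and SLC43A1 only in MIA PaCa-2. The 3 genes SLC1A4, SLC6A9 and SLC7A5 were higher in both lines, where 3.33% of the 12502 genes that passed in both lines were. The median log2 fold change was 0.99 over the 9 members in MIA PaCa-2 and 0.96 over the 8 in PANC-1, beside −0.01 and 0.02 over all genes.

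The promoters of these genes were read for the core of the C/EBP-ATF response element, TGATGNAA, where N is any base, on both strands. RefSeq (GRCh38.p14) gave 18 promoter windows for the 10 members, each with 250 bases before and 50 after an annotated start. The core lay in 5 windows, of 5 members. Over the whole genome it lay in 3.62% of 35116 windows and for 4.46% of 27305 genes. It lay at bases 8 to 15 after the start of SLC7A1 (chr13:29595663-29595692, minus strand), and from base −7 to base 1 at SLC1A4 (chr2:64989381-64989410, plus strand), where it reads on the opposite strand. At SLC38A1 it ran from base −4 to base 4 (chr12:46266502-46266531, minus strand). At SLC1A5 it ran from base −97 to −90 (chr19:46784893-46784922, minus strand) and at SLC1A3 from base −220 to −213 (chr5:36596357-36596386, plus strand). SLC1A4, SLC38A1, SLC1A5 and SLC1A3 have several windows, and each held the core in a single one. At SLC1A4, SLC38A1 and SLC1A5 the window at the outermost of the annotated starts did not hold it. The stretches are shown 5′ to 3′ on the gene's strand because they let the members with the core be compared, with the core in capitals.
SLC7A1: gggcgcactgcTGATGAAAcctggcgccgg
SLC1A4: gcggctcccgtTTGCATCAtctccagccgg
SLC38A1: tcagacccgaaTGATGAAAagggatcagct
SLC1A5: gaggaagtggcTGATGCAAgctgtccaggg
SLC1A3: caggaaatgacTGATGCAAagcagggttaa
SLC1A4, SLC1A5 and SLC1A3, all of the SLC1 family, shared the form TGATGCAA, and SLC7A1 and SLC38A1 the form TGATGAAA. Of the 4 genes called higher over both lines, SLC7A1 and SLC1A4 held the core in a window, and SLC7A5 and SLC6A9 did not. Of the others, SLC38A1, SLC1A5 and SLC1A3 held it and SLC38A2, SLC43A1 and SLC36A1 did not. These letters are a description of the windows, and no binding was measured.

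SLC7A5 (ENSG00000103257, chr16:87830023-87869507, minus strand, GRCh38) encodes LAT1, the light chain that exchanges leucine and other large neutral amino acids for glutamine. It had 10700 counts under PBS and 29298 under CBC in MIA PaCa-2, and 6719 and 16973 in PANC-1. As levels these were 481 and 1184 CPM, and 296 and 621 CPM. Both CBC libraries lay above both PBS libraries. The pseudogene SLC7A5P1, which could share reads with it, had 35 to 179 counts. The log2 fold change was 1.30 in MIA PaCa-2, with a 95% interval from counting error alone (exact binomial, Clopper-Pearson) of 1.27 to 1.33. It was 1.07 (1.03 to 1.11) in PANC-1. Over both lines SLC7A5 rose by 1.19 ± 0.18 on the log2 scale, with an adjusted p of 0.0162 by edgeR's quasi-likelihood test. The value after ± is an SE worked out from the test statistic of edgeR's fit to the 2 lines (fit SE), not the spread between them.

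LAT1 works only when bound to the heavy chain 4F2hc, the product of SLC3A2, which also carries the cystine transporter light chain SLC7A11. SLC3A2 stood at 144.7 and 894.6 CPM in MIA PaCa-2 and at 146.0 and 404.7 CPM in PANC-1 under PBS and CBC. Its log2 fold change was 2.63 and 1.47, above that of SLC7A5 in each line. The ratio of SLC3A2 to SLC7A5, both per kb of summed exons, was 0.224 under PBS and 0.563 under CBC in MIA PaCa-2, and 0.368 and 0.486 in PANC-1. With the length of the canonical transcript instead, the same ratios were 0.727 and 1.83, and 1.19 and 1.57, so that SLC7A5 had more mRNA with either length under PBS in MIA PaCa-2, and which chain had more depended on the length in the other libraries. The ratio was higher under CBC with either length. SLC7A11 stood at 20.1 and 69.4 CPM in MIA PaCa-2 and at 69.1 and 425 CPM in PANC-1. Both partner genes were called higher over both lines by edgeR's quasi-likelihood test, with adjusted p of 0.0150 for SLC3A2 and 0.00865 for SLC7A11.

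SLC43A1 (ENSG00000149150, chr11:57484534-57515780, minus strand) encodes LAT3, a carrier of branched-chain amino acids and phenylalanine that needs no heavy chain. It had 88 counts under PBS and 576 under CBC in MIA PaCa-2, but 11 and 3 in PANC-1. These were levels of 3.96 and 23.3 CPM, and of 0.484 and 0.110 CPM. The gene was thus near the limit of detection in PANC-1 and higher under CBC in MIA PaCa-2 only, a difference between the lines that was not tested. The log2 fold change was 2.53 (counting interval 2.23 to 2.90) in MIA PaCa-2. In PANC-1 the ratio of 3 to 11 counts gave −1.56 (−4.62 to −0.22), with both levels under 1 CPM. Over both lines the log2 fold change was 1.29 ± 0.94 (fit SE, 2 lines) with an adjusted p of 0.481 by edgeR's quasi-likelihood test.

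SLC1A5 (ENSG00000105281, chr19:46774883-46788594, minus strand) encodes ASCT2, the main sodium-dependent glutamine exchanger of many tumours. It had 5817 and 11783 counts in MIA PaCa-2 and 5605 and 9754 in PANC-1 under PBS and CBC, or 262 and 476 CPM, and 246 and 357 CPM. The CBC library was the higher in each line, with log2 fold changes of 0.86 (0.82 to 0.91) and 0.53 (0.49 to 0.58), under the DEG threshold. Over both lines the value was 0.71 ± 0.19 (fit SE, 2 lines). The adjusted p was 0.0844 by edgeR's quasi-likelihood test and 0.0197 by DESeq2. SLC1A5 therefore lay on either side of the threshold, depending on the tool and, within edgeR, on the filter for low counts. Its exons share 780 bases with a long noncoding RNA on the other strand, which had 9 to 33 counts.

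SLC1A4 (ENSG00000115902, chr2:64988477-65023865, plus strand) encodes ASCT1, an exchanger of alanine, serine, cysteine and threonine. It had 233 and 1638 counts in MIA PaCa-2 and 342 and 1459 in PANC-1, which were 10.5 and 66.2 CPM, and 15.0 and 53.4 CPM. SLC1A4 had the largest fold change of the members tested in each line, 6.28-fold (counting interval 5.51 to 7.28) in MIA PaCa-2 and 3.54-fold (3.15 to 4.01) in PANC-1. By fold change it was number 265 of 14001 genes in MIA PaCa-2 and number 252 of 14091 in PANC-1, counted from the highest. It rose over both lines by 2.25 ± 0.30 log2 units (fit SE, 2 lines), with an adjusted p of 0.0128 by edgeR's quasi-likelihood test. Per kb of summed exons, SLC1A4 stood at 0.0192 of the level of SLC1A5 under PBS and 0.0667 under CBC in MIA PaCa-2, and at 0.0293 and 0.0718 in PANC-1. ASCT2 mRNA thus remained the more abundant of the pair in every library.

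SLC38A1 (ENSG00000111371, chr12:46183063-46270017, minus strand) and SLC38A2 (ENSG00000134294, chr12:46358188-46372773, minus strand) lie close to each other and encode SNAT1 and SNAT2, which bring in glutamine and other neutral amino acids with sodium. SLC38A1 had 6921 and 10307 counts in MIA PaCa-2 and 13290 and 22279 in PANC-1, or 311 and 417 CPM, and 584 and 815 CPM. SLC38A2 had 15977 and 20279 counts, and 18235 and 33008 counts, or 718 and 820 CPM, and 802 and 1208 CPM. The log2 fold changes of SLC38A1 were close in both lines, at 0.42 (0.38 to 0.47) and 0.48 (0.45 to 0.51). Those of SLC38A2 were 0.19 (0.16 to 0.22) in MIA PaCa-2 and 0.59 (0.56 to 0.62) in PANC-1. SLC38A2 thus had the smallest fold change of the members tested in MIA PaCa-2. Neither gene passed edgeR's quasi-likelihood test over both lines, with adjusted p of 0.178 for SLC38A1 and 0.246 for SLC38A2. Their log2 fold changes there were 0.46 ± 0.17 and 0.40 ± 0.17 (fit SE, 2 lines).

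SLC6A9 (ENSG00000196517, chr1:43991500-44031467, minus strand) encodes GLYT1, which takes up glycine with sodium and chloride. It had 491 and 2053 counts in MIA PaCa-2 and 500 and 1901 in PANC-1, or 22.1 and 83.0 CPM, and 22.0 and 69.6 CPM. The PBS libraries lay close together and each CBC library was well above them, 3.75-fold (3.41 to 4.16) in MIA PaCa-2 and 3.16-fold (2.87 to 3.50) in PANC-1. Over both lines SLC6A9 rose by 1.79 ± 0.23 log2 units (fit SE, 2 lines), with an adjusted p of 0.0123 by edgeR's quasi-likelihood test. Its exons share 413 bases with CCDC24 on the other strand, and whether the counting used strand is not given in the sources used here. CCDC24 itself had 124 and 116 counts in MIA PaCa-2 and 397 and 593 in PANC-1.

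SLC7A1 (ENSG00000139514, chr13:29509414-29595688, minus strand) encodes CAT1, the main carrier of arginine and lysine in many dividing cells. It had 4870 and 10798 counts in MIA PaCa-2 and 3476 and 8110 in PANC-1, or 219 and 437 CPM, and 153 and 297 CPM. The log2 fold changes were nearly the same in both lines, at 0.995 (0.95 to 1.04) and 0.957 (0.90 to 1.02), and lay just inside the DEG threshold of 1, which both counting intervals held. Over both lines SLC7A1 rose by 0.98 ± 0.18 (fit SE, 2 lines), with an adjusted p of 0.0293 by edgeR's quasi-likelihood test. When the levels were scaled by library totals alone, SLC7A1 was at 1.06 and 1.03 and counted as a DEG in both lines.

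SLC36A1 (ENSG00000123643, chr5:151437046-151492379, plus strand) encodes PAT1, which carries small amino acids with protons, and which sits on lysosomes in many cells. It had 349 and 524 counts in MIA PaCa-2 and 387 and 911 in PANC-1, or 15.7 and 21.2 CPM, and 17.02 and 33.3 CPM. The log2 fold change was 0.43 (0.24 to 0.63) in MIA PaCa-2 and 0.97 (0.80 to 1.15) in PANC-1, and under library totals alone it was 1.04 in PANC-1. Over both lines it was 0.71 ± 0.28 (fit SE, 2 lines) with an adjusted p of 0.198 by edgeR's quasi-likelihood test. SLC1A3 (ENSG00000079215, chr5:36596588-36688334, plus strand), which encodes the glutamate transporter GLAST of astrocytes, had 2 counts in CBC-treated MIA PaCa-2 and 0 in the other libraries. A count of 0 allows a level of up to 0.135 CPM under PBS in MIA PaCa-2, and of 0.132 and 0.110 CPM in PANC-1, and SLC1A3 was not tested.

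**Figure D2:**
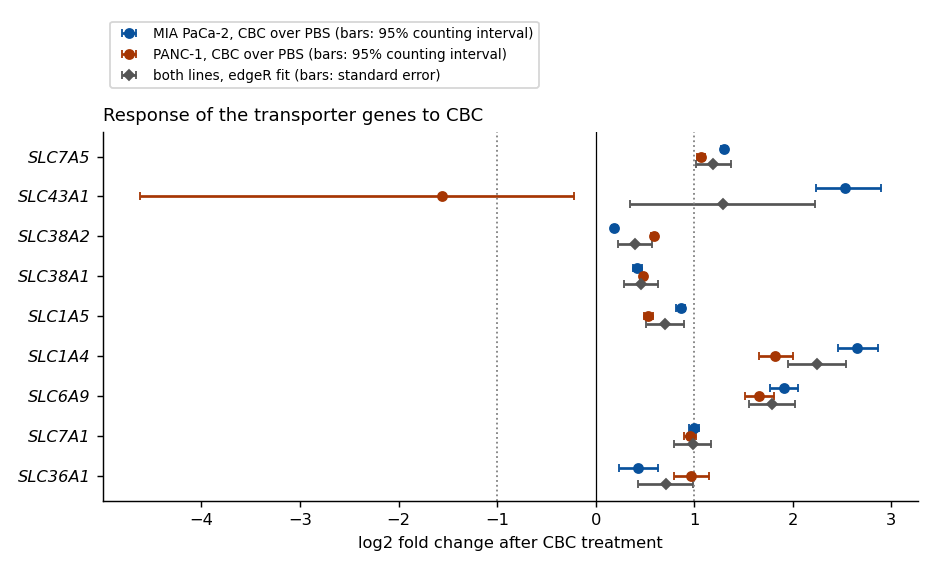
Log2 fold change after CBC treatment (horizontal axis) of the 9 transporters with a tested value, in MIA PaCa-2 (blue) and PANC-1 (brown) with 95% counting intervals. Grey diamonds give the value over both lines with the standard error worked out from the test statistic of edgeR's fit. Dotted lines mark −1 and 1; SLC1A4 and SLC6A9 lie past 1 in both lines, SLC7A1 lies just inside it, and the SLC43A1 values of the lines lie on opposite sides of 0.

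The response differed between the lines by less than 1 on the log2 scale for each of the 8 members that passed the filter in both. As PANC-1 minus MIA PaCa-2, the difference of the log2 fold changes was −0.83 for SLC1A4, −0.33 for SLC1A5, −0.25 for SLC6A9, −0.23 for SLC7A5 and −0.04 for SLC7A1. It was 0.06 for SLC38A1, 0.40 for SLC38A2 and 0.54 for SLC36A1. The 5 genes with negative values therefore had the larger response in MIA PaCa-2, and the 3 with positive values in PANC-1. With 1 library per condition these differences have no test, and the doses differed between the lines.

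Before treatment the lines had like amounts of this group. The summed level of PANC-1 was 1.05 times that of MIA PaCa-2. As PANC-1 over MIA PaCa-2, 0 of 9 members were past a log2 ratio of 1 and SLC43A1 was past −1, where 24% of all 14805 genes were higher and 18% lower. SLC43A1 was at −2.84 (counting interval −4.09 to −2.12). SLC38A1 was the next most different, at 0.91 (0.87 to 0.95), followed by SLC7A5 at −0.70 (−0.75 to −0.66). SLC7A1 and SLC1A4 were at −0.52 (−0.58 to −0.46) and 0.52 (0.28 to 0.77). SLC38A2, SLC36A1, SLC1A5 and SLC6A9 lay between −0.09 and 0.16. The counting intervals of SLC6A9 and SLC36A1 held 0, and SLC36A1 was at 0.12 here and at −0.015 under library totals alone.

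Under CBC the lines stood further apart for several genes. SLC7A5 was at a log2 ratio of −0.93 (−0.96 to −0.90), SLC36A1 at 0.65 (0.50 to 0.81) and SLC38A2 at 0.56 (0.53 to 0.58). SLC43A1 reached −6.93 (−10.0 to −6.17), which rests on 3 counts in PANC-1. SLC1A4 changed sign instead. It was higher in PANC-1 under PBS and lower there under CBC, with a log2 ratio of −0.31 (−0.41 to −0.21). PANC-1 thus held more mRNA of SNAT1 and SNAT2, and MIA PaCa-2 more of LAT1 and CAT1, under both treatments.

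**Figure D3:**
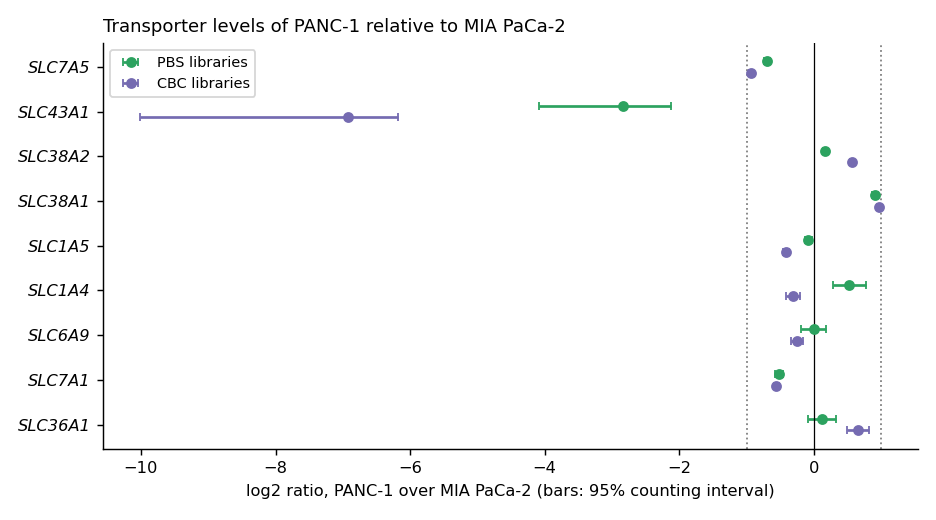
Log2 ratio of PANC-1 over MIA PaCa-2 (horizontal axis) for 9 transporters in the PBS libraries (green) and the CBC libraries (purple), with bars for 95% counting intervals and dotted lines at −1 and 1. SLC43A1 is past −1 in both, SLC38A1 stays near 0.9 and SLC1A4 lies on opposite sides of 0.

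Read per kb of summed exons, the same 5 genes led in every library. SLC38A2 was first under PBS, with 110 CPM per kb in MIA PaCa-2 and 123 in PANC-1. SLC7A5 was second in MIA PaCa-2 at 101, ahead of SLC1A5 at 78.5, while in PANC-1 SLC1A5 at 74.0 was ahead of SLC7A5 at 62.0. SLC38A1 and SLC7A1 followed, with 31.1 and 28.5 CPM per kb in MIA PaCa-2 and 58.4 and 19.9 in PANC-1. Under CBC, SLC7A5 led in MIA PaCa-2 at 249 CPM per kb, with SLC1A5 at 143 and SLC38A2 at 126. In PANC-1 SLC38A2 remained first at 186 and SLC7A5 was second at 130. The remaining genes stayed under 16 CPM per kb, with SLC6A9 highest among them in each library, at 4.21 and 15.8 in MIA PaCa-2 and 4.19 and 13.3 in PANC-1. With canonical transcript lengths the first gene of each library was the same, but SLC38A2 and SLC1A5 changed places in CBC-treated MIA PaCa-2, and SLC38A1 and SLC7A5 in PANC-1 under PBS.

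The make-up of the group differed between the treatments in both lines. Of the summed CPM per kb in MIA PaCa-2, SLC7A5 made up 28.2% under PBS and 38.2% under CBC, and SLC38A2 made up 30.8% and 19.4%. In PANC-1 SLC7A5 made up 17.9% and 22.9%, and SLC38A2 35.6% and 32.6%. SLC38A1 made up 8.67% and 6.39% in MIA PaCa-2, and 16.8% and 14.3% in PANC-1. SLC1A5 made up 21.9% and 22.0% in MIA PaCa-2, and 21.4% and 18.8% in PANC-1. SLC7A1 made up 7.94% and 8.72%, and 5.74% and 6.79%. The shares of SLC7A5 and SLC38A2 thus differed more in MIA PaCa-2, and those of SLC1A5, SLC38A1 and SLC7A1 more in PANC-1. The 5 less abundant genes took 2.54% and 5.38% in MIA PaCa-2, and 2.58% and 4.53% in PANC-1.

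**Figure D4:**
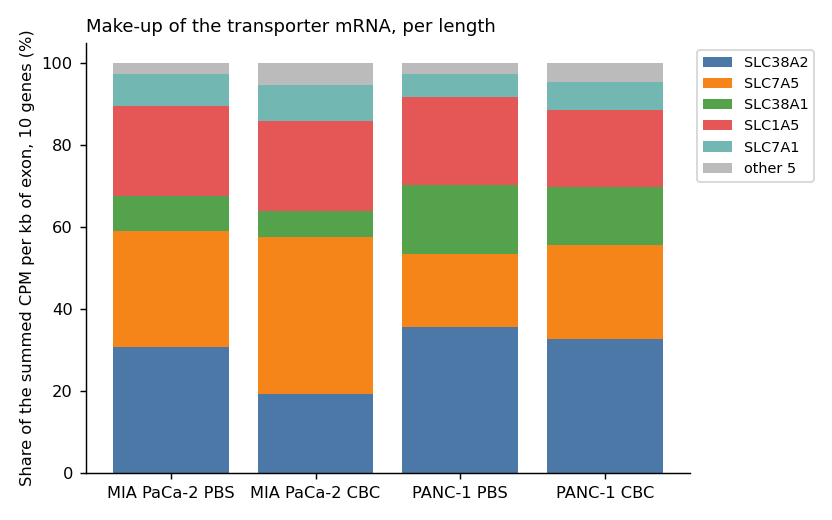
Share of the summed CPM per kb of exon (vertical axis, %) that each transporter takes in the 4 libraries, with the 5 less abundant genes together in grey. The SLC7A5 part is larger under CBC in both lines and is the largest part in CBC-treated MIA PaCa-2, at 38.2%.

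Other transporters of amino acids were read from lists chosen with results of these data known. Of 33 other transporters of the plasma membrane, 9 passed the filter in MIA PaCa-2 and 10 in PANC-1, with 1 higher and 1 lower DEG in each. Of all genes, 11.5% were higher and 8.97% lower in MIA PaCa-2, and 7.71% and 7.03% in PANC-1. The median log2 fold change of these transporters was −0.25 in MIA PaCa-2 and 0.06 in PANC-1. None of 13 was called in either direction over both lines by edgeR's quasi-likelihood test or by DESeq2, and 1 had an unadjusted p under 0.05 with edgeR and 0 with DESeq2, where 20.9% and 16.5% of all tested genes had. The DEGs, named after their values were seen, were SLC43A2 and SLC16A10 in MIA PaCa-2 and SLC7A7 and SLC3A1 in PANC-1. SLC43A2 encodes LAT4, the nearest relative of LAT3. It stood at 27.7 and 111 CPM in MIA PaCa-2 and at 15.5 and 16.4 CPM in PANC-1, with log2 fold changes of 2.01 and 0.09. The LAT3 and LAT4 genes were thus both higher under CBC in MIA PaCa-2 and neither was in PANC-1, which was not tested as a difference. SLC16A10, a carrier of aromatic amino acids, was at −1.40 in MIA PaCa-2 and had no counts in PANC-1. SLC3A1 was at −1.79 and SLC7A7 at 1.64 in PANC-1, the latter on 7 and 31 counts.

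On lysosomes, 5 of 6 other transporters passed the filter in each line. SLC38A7, which lets glutamine and asparagine out of lysosomes, was a higher DEG in both, at 41.8 and 106.5 CPM in MIA PaCa-2 and 21.2 and 48.7 CPM in PANC-1. SLC66A1, which exports cationic amino acids and was named after its value was seen, was a DEG in MIA PaCa-2 only, at log2 fold changes of 1.45 and 0.94 in MIA PaCa-2 and PANC-1. Over both lines edgeR's quasi-likelihood test called 2 of the 5 higher, where 2.26% of all tested genes were. The adjusted p of this test was 0.0241 for SLC38A7 and 0.0403 for SLC66A1. SLC38A9, an arginine sensor of the same membrane also named after its value was seen, had 0.98 and 0.74 and did not pass, with an adjusted p of 0.106 in edgeR. The median of the list was 0.98 in MIA PaCa-2 and 0.74 in PANC-1. Of 9 mitochondrial carriers of amino acids, 7 passed the filter, with medians of −0.28 and −0.12. SLC25A12, an aspartate-glutamate carrier named after its value was seen, was the only DEG among them, at −1.34 in MIA PaCa-2 and −0.46 in PANC-1. In MIA PaCa-2, 8.97% of all genes were lower DEGs. None of the 7 was called over both lines by edgeR's quasi-likelihood test or DESeq2, with 2 at an unadjusted p under 0.05 in each tool, where 20.9% of all tested genes were with edgeR and 16.5% with DESeq2.

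**Figure D5:**
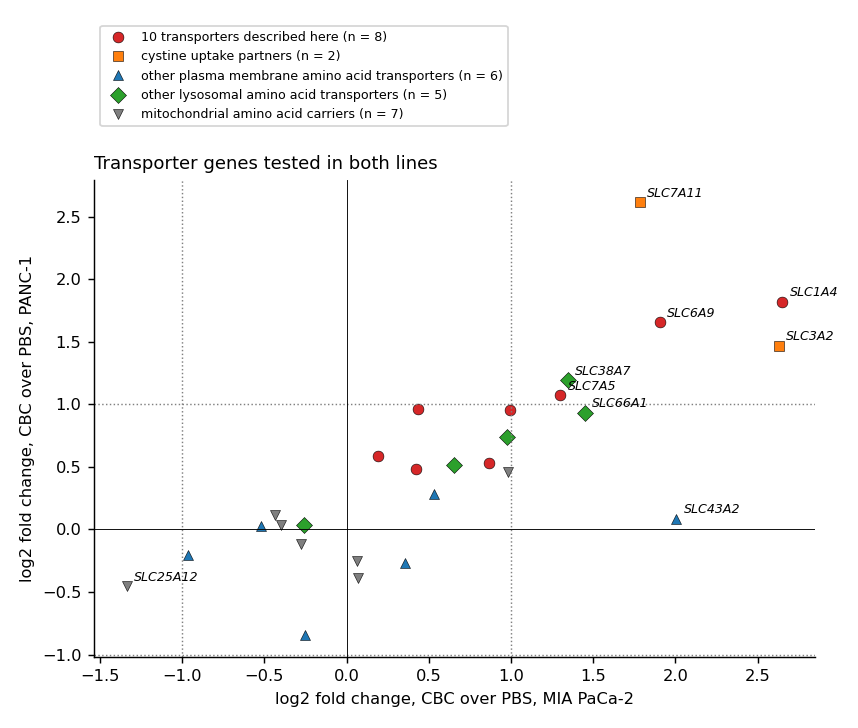
Log2 fold change after CBC treatment in MIA PaCa-2 (horizontal axis) and PANC-1 (vertical axis) of the transporter genes that passed the filter in both lines, by list, with dotted lines at −1 and 1. The 8 transporters described here lie above 0 on both axes with SLC1A4, SLC6A9 and SLC7A5 past 1 on both. Past 1 on both also lie 2 of 2 cystine uptake partners, 1 of 5 other lysosomal genes and 0 of 6 other plasma membrane genes. The same held for 0 of 7 mitochondrial carriers and for 3.33% of all 12502 genes that passed in both lines.

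Enzymes that use or make the same amino acids were mixed. Of 14 enzymes, 5 of the 12 that passed the filter in MIA PaCa-2 and 5 of the 13 in PANC-1 were higher DEGs. Of all genes, 11.5% and 7.71% were higher DEGs in these lines. SHMT1, named after its value was seen, was the only lower DEG, at −1.003 in MIA PaCa-2, where 8.97% of all genes were lower. The 5 higher DEGs were the same genes in both lines. Of the 12502 genes that passed the filter in both lines, 3.33% were higher DEGs in both. Over both lines edgeR's quasi-likelihood test called these 5 of 13 higher and 0 lower, where 2.26% and 2.45% of all tested genes were called. DESeq2 called the same 5 higher and SHMT1 lower. ASNS, which makes asparagine from aspartate with glutamine nitrogen, was 1.998 higher on the log2 scale under CBC in MIA PaCa-2 and 1.63 higher in PANC-1. BCAT1, which starts the breakdown of branched-chain amino acids, had log2 fold changes of 2.38 and 1.57. GOT1 and GPT2, which pass amino groups between glutamate and other amino acids, had 1.61 and 1.55, and 1.41 and 1.30. ARG2, which splits arginine, had 1.40 and 1.38. The adjusted p by edgeR's quasi-likelihood test ran from 0.00794 for ASNS to 0.0485 for ARG2.

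Of 12 transcription factors with known links to transporter genes, MIA PaCa-2 had 6 higher DEGs, PANC-1 had 4, and neither had a lower one. Of all genes, 11.5% and 7.71% were higher DEGs in these lines. ATF3, CEBPB, CEBPG and DDIT3, which dimerize with one another or with ATF4, were higher in both. So were 3.33% of the 12502 genes that passed the filter in both lines. ATF3 stood at 3.87 and 151 CPM in MIA PaCa-2 and at 3.91 and 58.5 CPM in PANC-1. DDIT3, which encodes CHOP, was at 8.63 and 187 CPM and at 23.4 and 196 CPM. CEBPB had log2 fold changes of 3.35 and 2.40, and CEBPG of 1.16 and 1.51. Over both lines 5 were called higher by edgeR's quasi-likelihood test, these 4 and ATF4, where 2.26% of all tested genes were. DESeq2 called these 5 and TFE3 higher. ATF4, like TFE3 named after its value was seen, stood at 206 and 614 CPM in MIA PaCa-2 and 243 and 469 CPM in PANC-1. The adjusted p of edgeR for the 5 ran from 0.00449 for ATF3 to 0.0229 for ATF4. MYC, also named after its value was seen, was like ATF4 a higher DEG in MIA PaCa-2 only, with log2 fold changes of 1.22 and −0.07. ATF5, named likewise, was at 0.63 in MIA PaCa-2 and −0.83 in PANC-1. Neither MYC nor ATF5 was called over both lines by edgeR or DESeq2. Of the 12 factors, 10 were above 0 in MIA PaCa-2 and 8 in PANC-1, where 6879 of 14001 and 7245 of 14091 genes were. ATF4 is controlled mainly at translation, which these libraries do not measure.

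The genes whose pattern over the 4 libraries was nearest to that of SLC1A4 and SLC6A9 were found by the distance between centred log2 CPM, out of 10042 genes that averaged 10 CPM or more. Nearest to SLC1A4 were HSPA5 at a distance of 0.20, CREBRF at 0.28 and KDM7A at 0.34. HSPA5, the main chaperone of the endoplasmic reticulum, was 2.43 higher on the log2 scale under CBC in MIA PaCa-2 and 1.86 higher in PANC-1. Nearest to SLC6A9 were RHOB at 0.13, ARHGEF2 at 0.19 and KLHL29 at 0.26. RHOB, a small GTPase, had 1.99 and 1.504. These distances over 4 libraries describe likeness only.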

How the data were processed

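The counts deposited by the authors are raw reads per Ensembl gene. Per the submitters' processing notes and the methods, reads were trimmed with cutadapt 2.7, aligned to GRCh38 with STAR and counted with HTSeq over an Ensembl annotation older than the one used here. The versions of STAR and HTSeq and the strand setting are not given in the sources used here. The authors also deposited a normalized signal, a CPM on TMM-scaled library sizes, which matched the counts to within 6.84e-09. Everything reported was computed from the counts, with positions and exon lengths from GENCODE release 44 and promoters from RefSeq.

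Each log2 fold change was taken with edgeR 4.0.16 (R 4.3.3), after TMM scaling of all 4 libraries and with a prior count of 2. Intervals and the limit of 3 counts cover counting error only. The test over both lines was edgeR's quasi-likelihood test of CBC against PBS, blocked by cell line, on 16381 genes kept by edgeR's filter and scaled by TMM over those genes. Libraries are paired by cell line, and across genes the deviations of same-line libraries from treatment means correlated at 0.923. The coefficient that edgeR fitted for biological variation was 23%. With 1 library per condition, it reflects how the response differed between the lines and not a spread of replicate cultures. Alternatives changed scaling, filter, prior count, block and tool (DESeq2 1.42.0).

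Members and lists were chosen with earlier results of these data known. The named genes were all 10 members, SLC3A2, SLC7A11, the genes of each list past the threshold the same way in both lines, and the 3 genes (mean of at least 10 CPM) nearest in pattern to the 2 members with the largest smaller-of-both-lines change. Other list genes are marked as named after their values were seen, and markers and overlapping genes are named as checks.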

Additional observations from a re-analysis of the deposited data

Results flagged for a closer look

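The log2 fold changes of SLC43A1 had opposite signs in the lines, and the value in PANC-1 minus that in MIA PaCa-2 was −4.09. The gene did not pass the filter for low counts in PANC-1. The levels were 3.96 and 23.3 CPM in MIA PaCa-2 and 0.484 and 0.110 CPM in PANC-1 under PBS and CBC, and the PANC-1 values rest on 11 and 3 counts. The counting intervals of both fold changes left out 0, but the difference between the lines was not tested, since there was 1 library per condition.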

How the results depend on the processing

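No member's CBC response changed direction under any alternative run, and between the lines under PBS only SLC36A1 did (0.12, and −0.015 under library totals). Scaled by library totals alone, 5 members were higher DEGs in PANC-1 in place of 3, with SLC7A1 and SLC36A1 added, and the median of all genes moved from 0.10 to −0.03 between the lines under PBS. Without a filter on low counts 1 member, SLC43A1, was lower in PANC-1 in place of 0. With 1 CPM required in both libraries 0 members were lower in PANC-1 than in MIA PaCa-2 under PBS in place of 1, since SLC43A1 then went untested. Over both lines without the replicate block, that is without the pairing by cell line, edgeR's quasi-likelihood test called 0 members higher in place of 4, and 0 genes of all, with 2 members and 354 genes at an unadjusted p under 0.05. With the block, SLC1A5 was added with DESeq2 (adjusted p of 0.0197) and with edgeR without a filter (0.0106), where edgeR otherwise gave 0.0657 to 0.0994. All genes called higher and lower numbered 370 and 401, against 579 and 717 with DESeq2 and 1056 and 1007 without a filter. SLC1A4, SLC6A9, SLC7A5 and SLC7A1 were called in every fit with the block, including TMM over all genes, which was added after seeing the data. Leaving out a library left no residual degrees of freedom, and leaving out a line gives the values of the other. Library depth limits SLC1A3 in all 4 libraries and SLC43A1 in PANC-1.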
